A study of Mus musculus with 8 samples.

Results

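The 10 transcription factors examined here, Pdx1, Mafa, Nkx6-1, Nkx2-2, Neurod1, Pax6, Isl1, Foxa2, Rfx6 and Insm1, are the genes commonly taken to define the identity of the pancreatic beta cell. They were found on the array by gene name, which gave 14 probes on 23 spots out of 39429 probes. The 10 genes are 10 of the 19994 named genes that passed the filter on dim signal. The study compared RNA of beta pancreatic cells from C57BL/6 mice on a high-fat diet (4 biological replicates) with RNA of the same kind of cells from C57BL/6 mice on a control diet, also called chow in the labels (4 biological replicates). Each sample was hybridised to 1 one-colour Agilent mouse array. No transgene or drug is named for either group. The length of the diet, the age and sex of the mice, the way the cells were isolated and whether animals were pooled are not given in the sources used here.

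Beta cells make and release insulin, and the genes for insulin, for the glucose transporter and for the glucose-sensing enzymes are switched on by a small set of DNA-binding proteins. Most of these proteins bind each other's genes as well as insulin's, so that the set keeps itself on. Several of them (Pax6, Isl1, Nkx2-2, Neurod1, Foxa2, Rfx6 and Insm1) are also made in other islet endocrine cells, such as the glucagon-producing alpha cells, while Mafa and Nkx6-1 are largely restricted to beta cells in the adult mouse islet and Pdx1 to beta and delta cells.

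The array reads each factor through 60-base probes, and a probe's place in the transcript decides which RNA forms it can catch. Probe sequences are those deposited in the scanner files, 5′ to 3′, with coordinates of mouse build mm9 as the same files give them. From general knowledge of these transcripts, not from an annotation of the build, the 3 probes printed here lie in or across the protein-coding part of Neurod1 and Pax6. They are shown because they carry the difference with the smallest p among the 14 probes (Neurod1) and the gene whose probes lay on opposite sides of 0 (Pax6). Capitals mark the TAA stop codon in the Pax6 probe with the brighter signal.
Neurod1 probe A_55_P2004972, chr2:79294309-79294368, minus strand: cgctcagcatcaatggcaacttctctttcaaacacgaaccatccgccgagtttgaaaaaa
Pax6 probe A_55_P2022946, chr2:105536454-105536513, plus strand: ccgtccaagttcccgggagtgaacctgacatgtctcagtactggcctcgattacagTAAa
Pax6 probe A_52_P469306, chr2:105524098-105524949, plus strand: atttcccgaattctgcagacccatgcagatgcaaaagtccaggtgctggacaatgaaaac
The second Pax6 probe spans 852 bases of the genome with 60 bases, so it crosses an intron and reads spliced RNA. The other Pax6 probe ends 1 base after the stop codon, and the starts of the pair lie 12356 bases apart on the genome.

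All 14 probes were well above background on all 8 arrays, none of their spots was saturated or marked as an outlier, and all 14 transcript identifiers matched the member's symbol in RefSeq. A level below is log2 of the processed signal minus the 75th percentile of the same array, so 0 is that percentile. A difference is the high-fat mean minus the control mean on this log2 scale, with its standard error (SE) and a 95% interval from limma. The adjusted p is Benjamini-Hochberg over all 26076 probes tested, with a threshold of 0.05. Levels are compared between diets within a probe, not between probes. The 8 arrays lay on 2 slides: replicates 1 and 2 of each diet on slide 1, and replicates 3 and 4 of each diet on slide 2. On each slide the high-fat arrays sat at positions 2 and 4 and the control arrays at positions 1 and 3, so position and diet cannot be told apart.

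Of the 14 probes, 10 had a lower mean in high-fat than in control samples and 4 a higher one, against 13572 of all 26076 probes (52%) with a lower mean. The split of the 14 was 13 and 1 with normexp background correction, which moved the median of all probes to 0.19, and 11 and 3 with quantile normalization. With normexp after leaving out 7 smeared spots of high-fat sample 2, the split was 12 and 2 and the median of all probes 0.026, so normexp values are given below with and without those spots. None of the 14 passed the adjusted threshold, as none of the 26076 did (0%, smallest adjusted p = 0.169). At an unadjusted p under 0.05, 1 of the 14, a Neurod1 probe, was lower and 0 were higher, against 884 lower (3.39%) and 629 higher (2.41%) of all probes, 1513 in all (5.8%). The median difference was -0.18 over the 14 probes and -0.010 over all probes. The 14 differences ran between -0.39 and 0.049, their SE between 0.11 and 0.21, and 7 of the 14 lay within 1 SE of 0. The 14 intervals together reached down to -0.75 and up to 0.51. On 0 of the 14 probes did every high-fat sample lie below or above every control sample, against 449 probes below (1.72%) and 425 above (1.63%) on the whole array. In RNA taken from many cells at once, fewer cells of a type and less RNA per cell cannot be told apart.

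**Figure D1:**
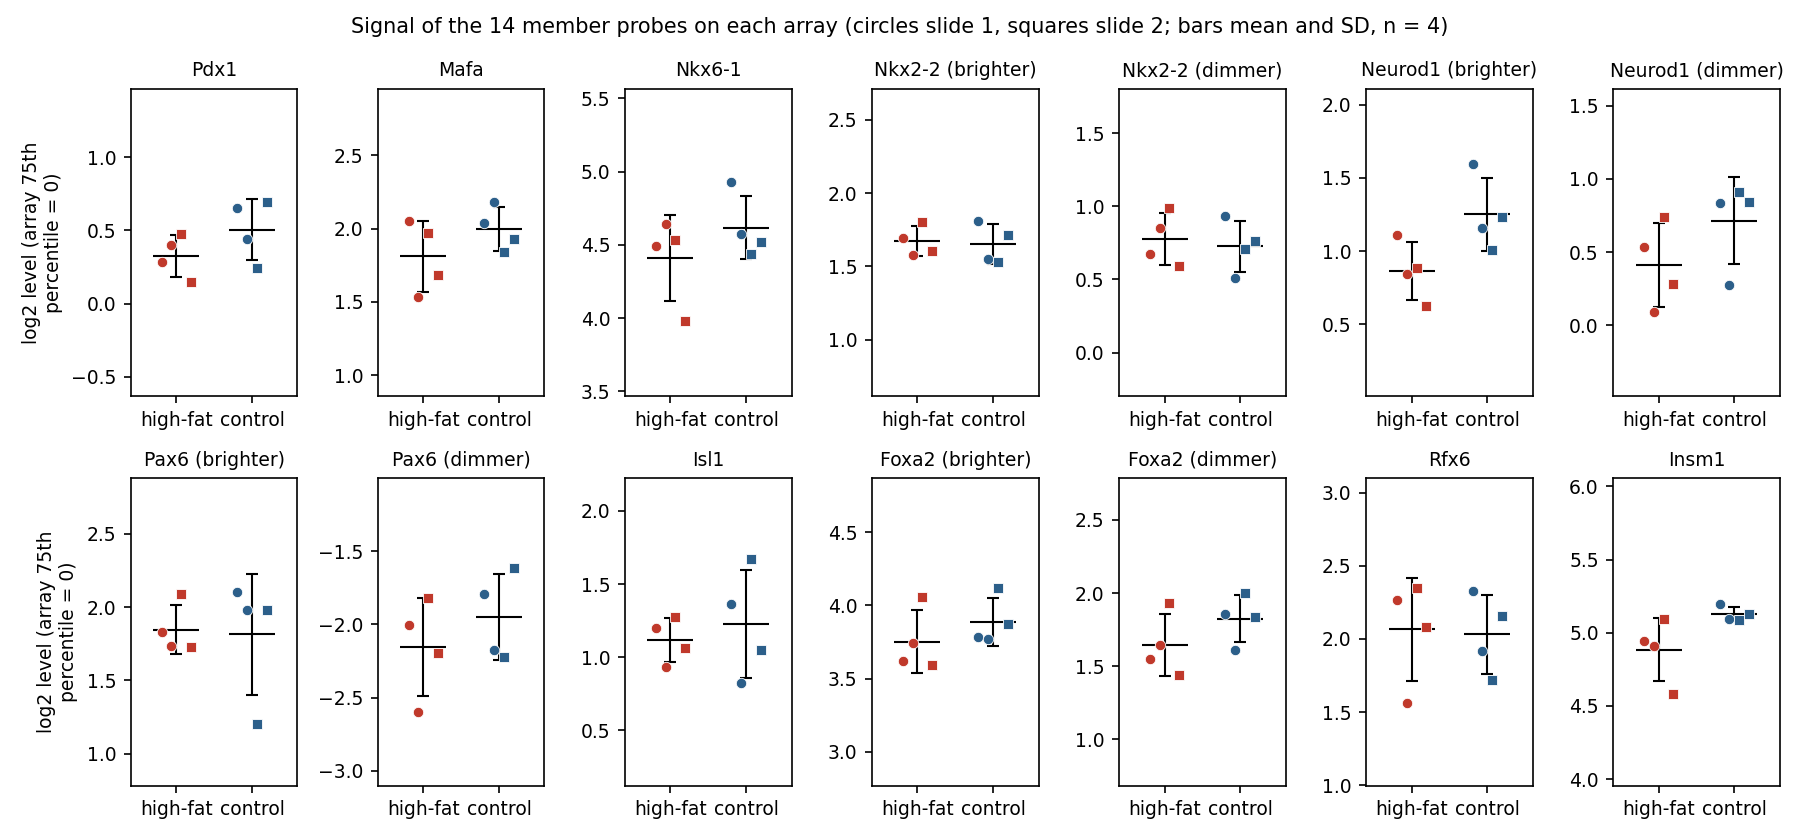
Level of the 14 probes on each array (log2 of processed signal, array 75th percentile at 0; every panel spans the same log2 range), high-fat samples left and control samples right, circles for slide 1 and squares for slide 2, with bars for the mean and SD of 4 samples. High-fat and control points overlap in every panel, and Neurod1 (brighter probe), Foxa2 (brighter probe) and Insm1 each have 3 of 4 high-fat points below the lowest control point.

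Neurod1, the basic helix-loop-helix factor that activates the insulin gene together with E proteins, had the lowest difference of the 10 factors. The brighter probe, printed above, read 1.11, 0.84, 0.89 and 0.62 in high-fat samples 1 to 4, against 1.59, 1.16, 1.01 and 1.23 in control samples 1 to 4. High-fat samples 2, 3 and 4 lay below the lowest control sample and high-fat sample 1 lay between control samples 3 and 2. The mean was 0.86 ± 0.20 in high-fat and 1.25 ± 0.25 in control samples (SD, n = 4 each), a difference of -0.39 ± 0.16 (SE; 95% interval -0.75 to -0.020), or 1.31-fold lower. The unadjusted p was 0.0408 and the adjusted p 0.832, so the difference did not pass. The unadjusted p was 0.147 when arrays were scaled to their medians and 0.0545 to 0.109 when 1 of 6 of the 8 samples was left out (all but control sample 3 and high-fat sample 1). Slide 1 gave -0.40, slide 2 gave -0.37, and leaving out control sample 1 gave -0.27.

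The second Neurod1 probe (A_52_P408391, chr2:79293621-79293680, minus strand) starts 688 bases away. It read 0.54, 0.09, 0.74 and 0.28 in high-fat samples, against 0.84, 0.27, 0.91 and 0.84 in control samples. High-fat samples 1, 3 and 4 lay within the control range, whose low end was control sample 2, and high-fat sample 2 lay below it. The difference was -0.30 ± 0.19 (adjusted p = 0.918), -0.24 on slide 1 and -0.37 on slide 2, and -0.20 without high-fat sample 2. The probes thus gave the same sign, and their levels over the 8 arrays correlated with Pearson r = 0.53.

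Pdx1, Nkx6-1 and Mafa each had a lower high-fat mean without passing the test. Pdx1, the homeodomain factor needed to form the pancreas and to keep insulin and Slc2a2 on in adult beta cells, has 1 probe (A_52_P31510, chr5:148086570-148086629, plus strand). It read 0.28, 0.40, 0.47 and 0.15 in high-fat samples, against 0.65, 0.44, 0.24 and 0.69 in control samples. Only high-fat sample 4 lay below the lowest control sample, control sample 3. The mean was 0.33 ± 0.14 in high-fat and 0.51 ± 0.21 in control samples (SD, n = 4 each), a difference of -0.18 ± 0.14 (interval -0.49 to 0.13, adjusted p = 0.918). It was -0.21 on slide 1 and -0.15 on slide 2, and -0.12 without control sample 4.

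Nkx6-1, a homeodomain repressor that keeps beta cells from taking on other endocrine fates, has 1 probe (A_55_P1953646, chr5:102088319-102088378, minus strand). It read 4.49, 4.64, 4.53 and 3.98 in high-fat samples, against 4.93, 4.57, 4.44 and 4.52 in control samples. High-fat samples 1, 2 and 3 lay inside the control range, and high-fat sample 4 lay below every other array. The difference was -0.20 ± 0.18 (interval -0.61 to 0.20, adjusted p = 0.924), and it was -0.060 without high-fat sample 4. It was -0.18 on slide 1 and -0.22 on slide 2.

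Mafa, the basic leucine zipper factor that binds the insulin enhancer in mature beta cells, read 2.05, 1.54, 1.97 and 1.68 in high-fat samples, against 2.04, 2.18, 1.84 and 1.93 in control samples on its 1 probe. High-fat samples 2 and 4 lay below every control sample, and high-fat samples 1 and 3 above 2 or more of them. The mean was 1.81 ± 0.24 in high-fat and 2.00 ± 0.15 in control samples (SD, n = 4 each), a difference of -0.19 ± 0.15 (interval -0.53 to 0.15, adjusted p = 0.92). Slide 1 alone gave -0.32, slide 2 alone -0.058, and leaving out high-fat sample 2 gave -0.097.

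Nkx2-2 and Pax6, homeodomain factors also made in other islet endocrine cells, had brighter probes with differences within 1 SE of 0. Nkx2-2 holds down alpha cell genes in beta cells. Its brighter probe (A_55_P1985911, chr2:147008949-147009008, minus strand) read 1.70, 1.58, 1.80 and 1.60 in high-fat samples, against 1.81, 1.55, 1.53 and 1.72 in control samples. All 4 high-fat values lay inside the control range. The difference was 0.018 ± 0.11 (interval -0.24 to 0.27, adjusted p = 0.986), -0.044 on slide 1 and 0.081 on slide 2, and its sign turned to -0.30 with normexp (-0.001 without the smeared spots) and to -0.012 with quantile normalization. The second probe (A_55_P1985905, chr2:147003307-147003366, minus strand), 5642 bases away, differed by 0.049 ± 0.14 (adjusted p = 0.971; -0.12 with normexp and 0.011 without the smeared spots), with r = 0.72 between the probes over 8 arrays.

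Pax6, which binds through a paired domain and a homeodomain and activates both insulin and glucagon, read 1.83, 1.74, 2.09 and 1.73 in high-fat samples, against 2.10, 1.98, 1.20 and 1.98 in control samples on the brighter probe. Control sample 3 lay below every other array, and the high-fat samples lay within the control range. The difference was 0.031 ± 0.21 (interval -0.45 to 0.51, adjusted p = 0.987), -0.26 on slide 1 and 0.32 on slide 2. Without control sample 3 it was -0.17, and with normexp -0.28 (-0.021 without the smeared spots).

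The intron-crossing Pax6 probe read -2.001, -2.60, -1.82 and -2.19 in high-fat samples, against -1.79, -2.17, -2.22 and -1.61 in control samples. High-fat sample 2 was the lowest array, and the groups overlapped. Its mean was -2.15 ± 0.34 in high-fat and -1.95 ± 0.29 in control samples (SD, n = 4 each), a difference of -0.20 ± 0.21 (interval -0.68 to 0.27, adjusted p = 0.929), -0.054 without high-fat sample 2 and 0.42 with normexp (-0.037 without the smeared spots). The processed signals of this probe ran between 72.1 and 206.6 intensity units over the 8 arrays. The pair had opposite signs, each within 1 SE of 0, and r = 0.55 over 8 arrays; no test of the gap between the probes was run.

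Isl1, the LIM-homeodomain factor that works with the adaptor Ldb1 in islet cells, is read by 1 probe on 10 spots (A_52_P337246, chr13:117088774-117088833, minus strand). The SD among the 10 spots of an array was 0.043 to 0.080 on the log2 scale. The probe read 1.20, 0.93, 1.28 and 1.07 in high-fat samples, against 1.36, 0.82, 1.67 and 1.05 in control samples. The high-fat values lay inside the control range, whose ends were control samples 2 and 3, and the SD between samples (0.15 in high-fat, 0.37 in control) was above that between spots. The difference was -0.11 ± 0.19 (interval -0.55 to 0.33, adjusted p = 0.958), -0.028 on slide 1 and -0.19 on slide 2, and 0.040 without control sample 3.

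Foxa2, the forkhead pioneer factor that opens chromatin at endodermal genes, read 3.62, 3.74, 4.06 and 3.59 in high-fat samples, against 3.78, 3.77, 4.12 and 3.87 in control samples on the brighter probe (A_55_P2134236, chr2:147868669-147868728, minus strand). High-fat samples 1, 2 and 4 lay below the lowest control sample, and high-fat sample 3 below only control sample 3. The difference was -0.13 ± 0.14 (interval -0.46 to 0.19, adjusted p = 0.931), -0.095 on slide 1 and -0.17 on slide 2, and -0.055 without control sample 3. The second probe (A_55_P2067533, chr2:147868614-147868673, minus strand) starts 55 bases away and shares bases with the first. It differed by -0.18 ± 0.14 (adjusted p = 0.919; -0.12 without high-fat sample 4), and the pair correlated with r = 0.92 over 8 arrays.

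Rfx6 and Insm1 act early in the endocrine lineage and stay on in adult islets. Rfx6, a winged-helix factor of the RFX family, has 1 probe (A_55_P2037448, chr10:51450116-51450175, plus strand), which read 2.27, 1.57, 2.35 and 2.08 in high-fat samples, against 2.33, 1.92, 1.72 and 2.16 in control samples. High-fat sample 2 was the lowest array and high-fat sample 3 the highest. The difference was 0.034 ± 0.21 (interval -0.44 to 0.51, adjusted p = 0.986), -0.21 on slide 1, 0.28 on slide 2 and -0.23 with normexp (0.037 without the smeared spots).

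Insm1, a zinc-finger repressor, had the least spread among control samples of the 14 probes. Its probe (A_55_P1977943, chr2:146050603-146050662, plus strand) read 4.95, 4.91, 5.09 and 4.58 in high-fat samples, against 5.20, 5.09, 5.09 and 5.13 in control samples. High-fat samples 1, 2 and 4 lay below every control sample and high-fat sample 3 between control samples 3 and 2. The mean was 4.88 ± 0.21 in high-fat and 5.13 ± 0.05 in control samples (SD, n = 4 each), a difference of -0.24 ± 0.13 (interval -0.53 to 0.045, unadjusted p = 0.0873, adjusted p = 0.885). It was -0.22 on slide 1 and -0.27 on slide 2, and -0.15 without high-fat sample 4. Quantile normalization gave -0.39, the deposited values -0.36, and normexp -0.66, or -0.24 without the smeared spots. Nkx6-1 and the brighter Foxa2 probe moved the same way, to -0.33 and -0.21 with quantile normalization and to -0.33 and -0.22 with the deposited values.

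**Figure D2:**
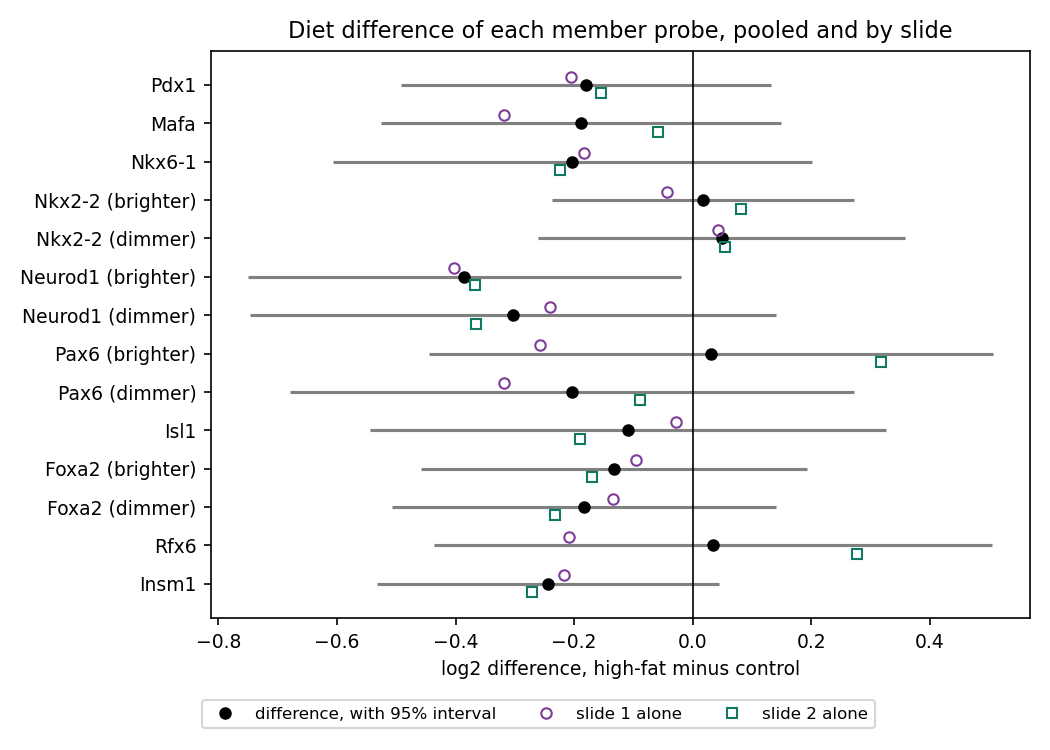
High-fat minus control difference of each of the 14 probes (log2 scale, filled circle) with its 95% interval (line), and the difference on slide 1 alone (open circle) and slide 2 alone (open square, 2 arrays a diet each). The interval leaves out 0 for the brighter Neurod1 probe, at -0.75 to -0.020, and holds 0 for the other 13; with normexp background correction, 13 of the 14 differences lie below 0 in place of 10, and 12 once the smeared spots are left out.

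Of the 14 probes, 11 had the same sign on both slides, against 13652 of 26041 probes (52.4%) for which this could be computed. The brighter Nkx2-2 probe, the brighter Pax6 probe and Rfx6 had opposite signs. The smallest interaction p between slide and diet among the 14 was 0.184 (adjusted p = 0.821), against 0 of 26041 probes with an adjusted interaction p under 0.05 and 1697 (6.52%) with an unadjusted one. Of the slide term itself, the smallest adjusted p among the 14 was 0.356, while 722 of 26070 probes (2.77%) passed.

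The spread among samples of the same diet was shared by many of the probes. High-fat sample 4 was the lowest of the 8 arrays on 6 probes and below the probe's own mean on 13 of 14. High-fat sample 2 was the lowest on 4 probes and below the mean on 12, while high-fat sample 3 was below it on 1. Control sample 1 was the highest on 5 probes and below the mean on 1, and control sample 4 was also below it on 1, while control samples 2 and 3 were below it on 8 and 9. The median deviation over the 14 probes was -0.22 in high-fat sample 4, 0.16 in high-fat sample 3 and 0.21 in control sample 1. Over all probes the same medians lay between -0.038 and 0.061 on all 8 arrays. The scaling of each array holds those medians near 0, and other probes of like level were not compared. The counts were not made over all probes, and 4 genes enter them with 2 probes each.

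**Figure D3:**
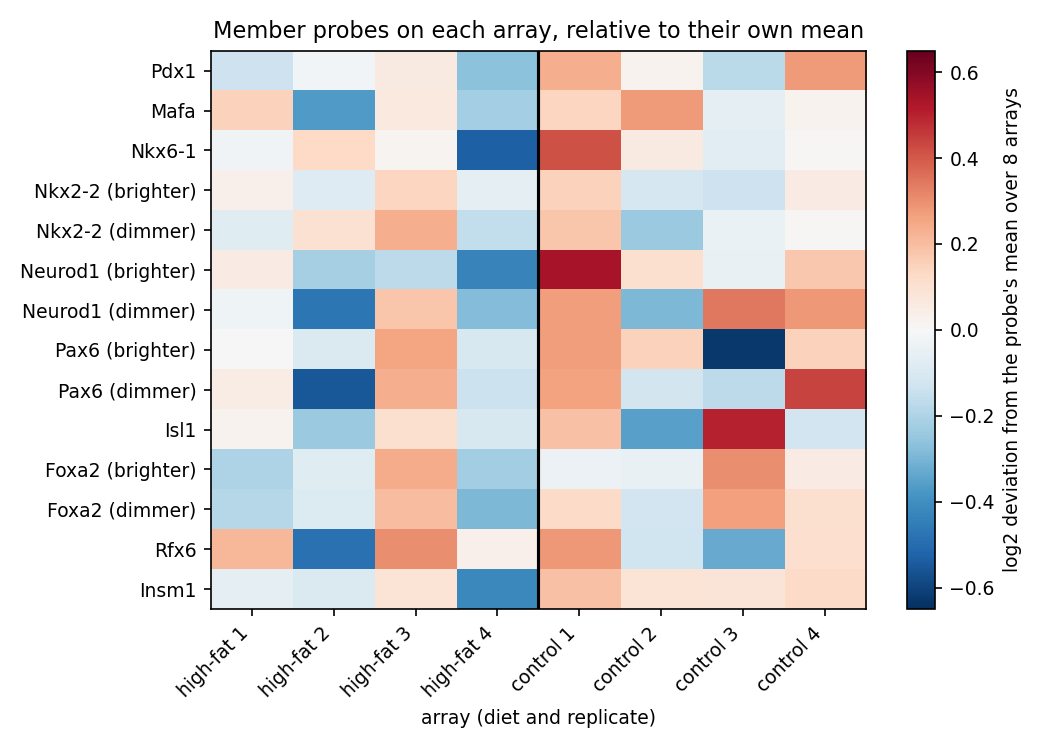
Deviation of each probe on each array from that probe's mean over the 8 arrays (log2 scale, blue below and red above the mean), high-fat samples in the left 4 columns and control samples in the right 4. High-fat sample 4 is blue on 13 of 14 probes, high-fat sample 3 on 1, and control sample 1 on 1; the deepest blue cell of the control columns is the brighter Pax6 probe in sample 3.

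Among the 45 pairs that the 10 factors form (brighter probe of each), 41 had a Pearson r above 0 over the 8 arrays, with a median of 0.38 and a range of -0.49 to 0.86. These are descriptions: the points share array, scaling and diet, and n is 8. The same count was not made for pairs of other genes, so it is not shown to be particular to these factors. Nkx2-2 and Rfx6 had the highest r, 0.86 (Spearman rho 0.88), with 0.86 after each diet's mean was subtracted, 0.78 without the 2 arrays farthest from the Nkx2-2 median and 0.89 without high-fat sample 4. Nkx6-1 and Insm1 had r = 0.82, but 0.38 without high-fat sample 4 and -0.44 without the 2 arrays farthest from the Nkx6-1 median, so that value rested on those arrays. Pdx1 and Neurod1 had r = 0.74, with 0.61 without high-fat sample 4. Pax6 and Isl1 had the lowest r, -0.49 (Spearman rho -0.024).

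RefSeq start-site windows (build GRCm38.p6, 250 bases before to 50 after the start) were at hand for 8 of the 10 factors. Those of 2 of the pairs just described, Nkx2-2 with Rfx6 and Pdx1 with Neurod1, are printed because their members' levels varied together. The pairs were chosen after their values were seen, and some other pairs had a higher r than Pdx1 with Neurod1. Nkx6-1 with Neurod1, whose windows were also at hand, had r = 0.805. Capitals mark CANNTG, the E box to which helix-loop-helix factors such as Neurod1 bind, and TAAT or ATTA, the core of many homeodomain sites, on both strands, with overlapping matches each counted. These coordinates are of another build than those of the probes.
Nkx2-2, chr2:147186353-147186652, minus strand: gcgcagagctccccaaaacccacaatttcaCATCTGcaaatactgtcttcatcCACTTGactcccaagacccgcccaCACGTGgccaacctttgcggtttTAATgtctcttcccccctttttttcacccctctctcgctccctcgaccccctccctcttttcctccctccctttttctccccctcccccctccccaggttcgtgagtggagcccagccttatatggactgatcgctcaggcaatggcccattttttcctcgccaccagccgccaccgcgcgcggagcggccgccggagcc
Rfx6, chr10:51685268-51685567, plus strand: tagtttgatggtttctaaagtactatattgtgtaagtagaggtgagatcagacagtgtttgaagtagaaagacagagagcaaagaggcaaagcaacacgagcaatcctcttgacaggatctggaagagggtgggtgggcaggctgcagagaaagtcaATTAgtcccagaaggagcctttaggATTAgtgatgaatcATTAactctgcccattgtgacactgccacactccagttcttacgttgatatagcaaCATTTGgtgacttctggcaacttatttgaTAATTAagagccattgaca
Pdx1, chr5:147269847-147270146, plus strand: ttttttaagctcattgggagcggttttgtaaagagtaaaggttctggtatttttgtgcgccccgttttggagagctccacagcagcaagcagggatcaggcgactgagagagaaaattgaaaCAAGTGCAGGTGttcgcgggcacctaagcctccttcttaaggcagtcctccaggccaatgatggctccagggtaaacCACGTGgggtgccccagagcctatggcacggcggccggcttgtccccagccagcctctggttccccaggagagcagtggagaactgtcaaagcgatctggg
Neurod1, chr2:79456587-79456886, minus strand: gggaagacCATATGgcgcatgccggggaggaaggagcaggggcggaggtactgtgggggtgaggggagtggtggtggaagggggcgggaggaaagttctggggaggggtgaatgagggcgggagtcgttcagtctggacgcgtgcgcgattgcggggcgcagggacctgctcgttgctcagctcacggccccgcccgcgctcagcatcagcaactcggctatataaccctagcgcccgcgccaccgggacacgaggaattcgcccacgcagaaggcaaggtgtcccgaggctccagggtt
The Nkx2-2 window holds CANNTG 3 times and TAAT or ATTA 1 time, and the Rfx6 window CANNTG 1 time and TAAT or ATTA 5 times. The last 2 of these 5 overlap within TAATTA. The Pdx1 window holds CANNTG 3 times, with a pair of matches side by side, and TAAT or ATTA 0 times. The Neurod1 window holds CANNTG 1 time, TAAT or ATTA 0 times and TATAA 1 time. The Nkx6-1 window, not printed, holds CANNTG 0 times and TAAT or ATTA 0 times. In the first window of the 8 factors, CANNTG occurred in 5, against 72.1% of 27025 genes, and TAAT or ATTA in 5, against 58.3%. TATAA, searched on the gene's own strand alone, occurred in 1 of 8, against 18.2%, and TGTTTA or TAAACA, a forkhead core on both strands, in 0 of 8, against 13.4%. A match describes these letters only and shows no binding.

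The genes whose levels followed each factor most closely over the 8 arrays (1 probe per gene, Pearson r, n = 8) were named with no statement on function. They were Hunk (r = 0.96), Wdr54 (0.95) and St6gal1 (0.94) for Pdx1, Bcl6b (0.96), Usp54 (0.96) and Nrcam (0.95) for Mafa, and Armcx1, D11Wsu47e and Rnf113a1 (0.97 each) for Nkx6-1. For the other factors the closest were Zfp608 for Nkx2-2 (0.98), Pde1c for Neurod1 (0.97), Ints1 for Pax6 (0.99), Kcna5 for Isl1 (0.98), Rbm43 for Foxa2 (0.97), Atrx for Rfx6 (0.97) and Sptb for Insm1 (0.98). None of the 10 factors was the closest gene of another. With 19994 genes searched over 8 points, r values of this size are picked as the highest of many.

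Genes that the 10 factors are known to act on, or act with, were read from the same fit with 1 probe per gene. At an unadjusted p under 0.05, 650 of all 19994 genes (3.25%) were lower in high-fat samples and 501 (2.51%) higher, 9960 (49.8%) had a difference below 0, and the median was 0.001. By the same count, the 10 factors had 7 below 0, 1 lower at an unadjusted p under 0.05 (Neurod1), 0 higher and a median of -0.16. No gene of any list below passed the adjusted threshold. Most of the genes named below have the smallest unadjusted p of their list, which favours groups that do not overlap. Over all probes, every high-fat sample lay below every control sample on 1.72%, and above on 1.63%.

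Of 32 listed targets in beta cells, 31 were measured: 16 lay below and 15 above 0. At an unadjusted p under 0.05, 4 were lower and 2 higher. The median was -0.037, and 0.036 when arrays were scaled to their medians. That scaling moved the median of all probes from -0.010 to 0.062, which holds for the lists below as well. The 4 lower ones were Slc2a2, Nnat, Trpm5 and the neuropeptide gene Npy, and the higher ones G6pc2 and Pak3. Npy differed by -1.65, with an unadjusted p that rounds to 0.05 and an adjusted p of 0.858. Both insulin genes, Ins1 and Ins2, and amylin (Iapp) differed by 0.028 ± 0.19, 0.047 ± 0.17 and 0.036 ± 0.20, and each turned sign on slide 2 alone (-0.32, -0.34 and -0.32), with normexp (-0.39, -0.37 and -0.38, but 0.026, 0.044 and 0.030 without the smeared spots) and with quantile normalization (-0.077, -0.012 and -0.017). Slc2a2, the glucose transporter that Pdx1 acts on, read 4.11, 3.67, 3.74 and 3.14 in high-fat samples, against 4.13, 4.09, 4.19 and 4.14 in control samples. High-fat samples 2, 3 and 4 lay below every control sample. The difference was -0.47 ± 0.19 (unadjusted p = 0.0368, adjusted p = 0.826), -0.22 on slide 1 and -0.72 on slide 2, and -0.30 without high-fat sample 4.

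G6pc2, the islet glucose-6-phosphatase, was higher in each high-fat sample than in every control sample. It read 5.43, 5.67, 5.79 and 5.56 in high-fat samples, against 5.15, 5.36, 5.31 and 5.30 in control samples, a difference of 0.33 ± 0.11 (adjusted p = 0.773; -0.073 with normexp, 0.34 without the smeared spots, 0.17 with quantile normalization and 0.19 with the deposited values). Nnat, a small membrane protein gene that Neurod1 activates in beta cells, lay lower in each high-fat sample than in every control sample, at -1.18 ± 0.29 (adjusted p = 0.559). The Nnat difference was -0.24 with normexp, -0.68 without the smeared spots and -0.30 with the deposited values. The cation channel gene Trpm5 differed by -0.63 ± 0.24 (adjusted p = 0.812) and the kinase gene Pak3 by 0.56 ± 0.21 (adjusted p = 0.8; high-fat sample 3 had no usable spot; -0.080 with normexp and 0.45 without the smeared spots). Ucn3, a peptide of mature beta cells, differed by 0.037 ± 0.17, with the sign turned to -0.36 with normexp (0.051 without the smeared spots) and -0.088 with quantile normalization.

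Of 62 other islet and pancreatic transcription factors, 52 passed the filter on dim signal: 33 lay below and 19 above 0, 6 were lower and 2 higher at an unadjusted p under 0.05, and the median was -0.061, which turned to 0.012 with median scaling. The higher ones were Bach2 (0.77, adjusted p = 0.61) and Meis3 (0.36, adjusted p = 0.723). Among the lower ones, Irx1, Hhex and Neurog3 each had every high-fat sample below every control sample, as did 1.72% of all probes. They were named for their small p and are factors of other islet cells or of endocrine progenitors. Irx1, an alpha cell factor, read 0.16, -0.61, -0.28 and -0.56 in high-fat samples, against 0.68, 0.60, 1.24 and 0.60 in control samples. It differed by -1.10 ± 0.22 (adjusted p = 0.389; -0.70 with the deposited values). The delta cell factor Hhex differed by -0.60 ± 0.11 (adjusted p = 0.335; -0.36 with the deposited values) and the progenitor factor Neurog3 by -0.73 ± 0.16 (adjusted p = 0.429).

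Of 36 cofactors and chromatin modifiers that act with the 10 factors, all 36 were measured: 24 lay below and 12 above 0, 0 were lower and 1 higher at an unadjusted p under 0.05, and the median was -0.040, which turned to 0.033 when arrays were scaled to their medians. The higher one was the co-repressor gene Tle1, at 0.36 ± 0.13 (adjusted p = 0.783; 0.064 with normexp and 0.33 without the smeared spots), with each high-fat sample above every control sample. The acetyltransferase gene Ep300 differed by -0.23 ± 0.12 (0.36 with normexp, -0.056 without the smeared spots, -0.027 with the deposited values; -0.15 without high-fat sample 4) and the Polycomb methyltransferase gene Ezh2 by 0.24 ± 0.13 (0.062 with the deposited values; 0.15 without high-fat sample 4), with adjusted p of 0.888 and 0.899. Of 7 listed antisense or overlapping genes, 2 were measured. Pax6os1, antisense to Pax6, differed by -0.069 ± 0.12 (adjusted p = 0.959), or 0.004 when arrays were scaled to their medians.

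**Figure D4:**
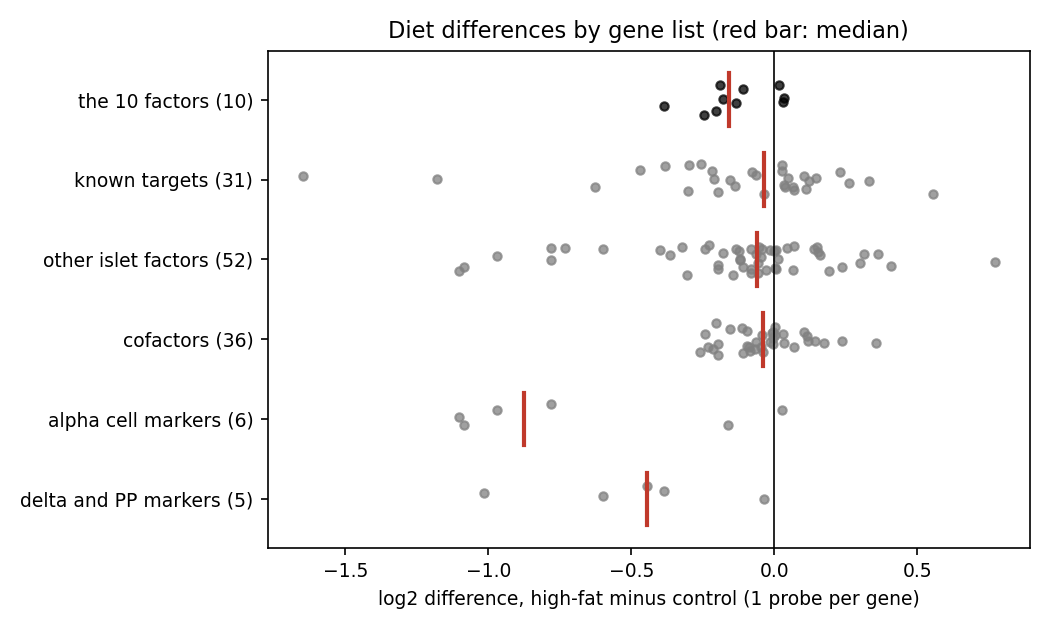
High-fat minus control difference (log2 scale, 1 probe per gene, numbers of genes in brackets) of the 10 factors, the 3 related lists and the alpha and delta or PP cell markers, each point a gene and each red bar a list's median. The 10 factors lie between -0.39 and 0.034 with a median of -0.16, and the alpha markers have a median of -0.87. With normexp background correction the median of the other islet factors is 0.074 in place of -0.061. It is -0.042 once the smeared spots are left out. With median scaling the medians of the 3 related lists are 0.036, 0.012 and 0.033, and that of all probes is 0.062.

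Markers of other islet cells were read from the same fit, and none passed the adjusted threshold. Of 7 alpha cell markers 6 were measured, 5 below 0 and 4 of them, Irx1 and Irx2 included, with an unadjusted p below the threshold. The hormone gene Gcg differed by -0.16 (unadjusted p = 0.326) and the carrier gene Ttr by 0.029 (unadjusted p = 0.863). The list's mean level was 1.48 to 1.94 in high-fat samples and 2.17 to 2.71 in control samples. All 5 delta and PP cell markers lay below 0, and 4 (Sst, Hhex, Rbp4 and Ghsr) had an unadjusted p below 0.05. The other 1, the PP cell hormone gene Ppy, differed by -0.034 (unadjusted p = 0.888). The mean level of the 5 was 2.47 to 2.77 in high-fat samples and 2.91 to 3.21 in control samples. Neither range overlapped between diets, and how often the mean levels of other sets of genes separate in this way was not counted. Of all 19994 genes, 650 (3.25%) were lower at an unadjusted p under 0.05. Genes such as Irx1, Irx2 and Hhex stand both in these marker lists and in that of the other islet factors. The 9 beta cell markers were well above background on all 8 arrays and had a mean level of 5.46 to 5.74 in high-fat samples and 5.51 to 5.70 in control samples. All 12 acinar markers were also well above background on all 8 arrays, with a mean level of 6.15 to 7.08 in high-fat samples and 5.85 to 7.03 in control samples. Of these, 10 lay above 0 and 2 below, with a median difference of 0.11 and 0 at an unadjusted p under 0.05. The medians of the ductal, endothelial, macrophage and leukocyte, stellate and Schwann cell markers were 0.080, 0.060, -0.53, 0.20 and -0.23, with 0 genes of these lists at an unadjusted p under 0.05. The part of these other cells in the values of the factors shared by several islet cell types was not tested.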

How the data were processed

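RNA of 8 samples (4 high-fat, 4 control) was hybridised to one-colour arrays. Per the file headers, the authors' scanner files were made by Agilent Feature Extraction 11.5.1.1, which subtracted background and corrected spatial trends; the deposited processed signal is in intensity units. The authors' deposited value table holds log2 values made with limma, per the submitters' processing notes; its centring and steps are not stated, its array medians were 8.68 to 8.69, and it served as an alternative. Its 28061 probes all matched scanner probes, with r of 0.61 to 0.68 for differences between arrays.

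From the scanner files, log2 of the processed signal minus the array's 75th percentile (signal 335.8 to 715.4) was taken over 43020 non-control spots. Outlier spots (125 to 228 an array) were left out, spots of a probe averaged, and a probe was tested (26076 of 39429) if the scanner called it well above background on 4 or more arrays. The number of arrays limits the precision (median SE 0.17). High-fat minus control was tested with limma 3.58.1 in R 4.3.3 (lmFit, eBayes, Benjamini-Hochberg over all probes). The procedure was tested on simulated data. Tables and plots used Python 3.11.15, pandas 2.3.3, numpy 2.4.6 and matplotlib 3.10.9. Alternatives covered background correction, normalization, filter, slide, array weights, eBayes, value table, replicate number and each sample left out.

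The members and lists were chosen with earlier results of these data known; the lists were written by hand. Named genes were every member, up to 4 genes a list with the smallest unadjusted p, the beta cell genes Ins1, Ins2, Iapp, Slc2a2, Ucn3 and G6pc2, and the gene most alike in pattern to each member (3 for Pdx1, Mafa and Nkx6-1), except some items that are not reported here. Irx2, Gcg, Ttr, Npy, Bach2, Meis3, Sst, Rbp4, Ghsr, Ppy and the sequences and pairs printed were chosen after their values were seen. By their titles the samples are biological replicates, with no pairing stated, so the numbers were not taken to pair them. Deviations of same-numbered samples of the diets correlated with r of 0.24, 0.39, -0.02 and 0.30, which does not settle whether they were paired.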

Additional observations from a re-analysis of the deposited data

Results flagged for a closer look

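In 3 of the 59 groups of 4 samples examined, 1 sample stood far from the other 3, measured as its gap to the nearest sample over the group's whole range, against Dixon's 95% critical value for 4 samples. Chance alone marks about 1 in 20 such groups. On the dimmer Neurod1 probe, control sample 2 read 0.27, with the other control samples between 0.83 and 0.91. On the brighter Pax6 probe, control sample 3 read 1.20, with the others between 1.98 and 2.10. Irx1 read 1.24 in control sample 3, with the others between 0.60 and 0.68. Without these samples the differences were -0.45 for the Neurod1 probe, -0.17 for the Pax6 probe and -0.95 for Irx1.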

How the results depend on the processing

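No member probe passed the adjusted threshold under any of the 14 other settings or with any 1 sample left out. Of 192 differences of member probes under those settings 177 kept their sign, and of 112 with a sample left out 100 did; for the other named genes these were 203 of 223 and 117 of 128. Over all probes, the count past the threshold was 1 with the deposited values, 1 with trended and robust eBayes, and 0 to 2 with a sample left out (2 without high-fat sample 1). The median of the members ran from -0.24 to -0.10 with a sample left out.

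Normexp moved the median of all probes to 0.19, against -0.010 in the scaling used above, and that of the members to -0.32. Its values turned sign for Nkx2-2 (-0.30 brighter, -0.12 dimmer probe), Pax6 (-0.28 brighter, 0.42 dimmer), Rfx6 (-0.23), G6pc2 (-0.073), Pak3 (-0.080), Ins1 (-0.39), Ins2 (-0.37), Iapp (-0.38), Ucn3 (-0.36) and Ep300 (0.36), and it moved the medians of targets, other factors and cofactors to -0.37, 0.074 and -0.23. Leaving out the 7 smeared spots of high-fat sample 2, whose local background reached 261989, gave a median of all probes of 0.026 and list medians of -0.045, -0.042 and -0.029. Any smeared control spots, not counted in the 7, were left out as well. The signs were then those of the main scaling for the dimmer Nkx2-2 (0.011) and Pax6 (-0.037) probes, Rfx6 (0.037), G6pc2 (0.34) and Pak3 (0.45). The same held for Ins1 (0.026), Ins2 (0.044), Iapp (0.030), Ucn3 (0.051) and Ep300 (-0.056), so these normexp turns were seen only with the smeared spots kept in. The brighter Nkx2-2 probe stood at -0.001 and the brighter Pax6 probe at -0.021. Quantile normalization gave -0.012 for that Nkx2-2 probe, -0.077 for Ins1, -0.012 for Ins2, -0.017 for Iapp and -0.088 for Ucn3. The deposited values gave -0.015 (Nkx2-2, brighter), -0.031 (Pax6, brighter) and -0.061 (Ucn3). Array weights gave -0.050 (Pax6, brighter), 0.004 (Isl1), -0.047 (Ins1) and -0.020 (Ucn3). Median scaling gave 0.004 for Pax6os1 and medians of 0.036, 0.012 and 0.033 for targets, other factors and cofactors. It moved the median of all probes to 0.062, above each of these values. On slide 1 alone the values were -0.044 (Nkx2-2, brighter), -0.26 (Pax6, brighter), -0.21 (Rfx6), -0.013 (Ucn3), 0.034 (Pax6os1) and 0.037 (cofactors' median). On slide 2 alone they were -0.32 (Ins1), -0.34 (Ins2), -0.32 (Iapp) and -0.12 (cofactors' median). Beyond leaving out the smeared spots, the causes of these changes were not tested.

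With each sample left out, the differences ran from -0.026 to 0.072 (Nkx2-2, brighter), -0.024 to 0.12 (dimmer), -0.17 to 0.13 (Pax6, brighter), -0.24 to 0.040 (Isl1), -0.070 to 0.20 (Rfx6), -0.10 to 0.14 (Ins1), -0.064 to 0.14 (Ins2), -0.12 to 0.15 (Iapp), -0.090 to 0.12 (Ucn3) and -0.12 to 0.024 (Pax6os1). Medians ran from -0.10 to 0.024 (targets), -0.088 to -0.057 (other factors) and -0.079 to 0.002 (cofactors). With the replicate number as a block, 0 member probes passed the threshold and 2 had an unadjusted p under 0.05, in place of 1. That unadjusted count was also 2 with quantile normalization and with the deposited values, and 0 with normexp, with median scaling, on either slide alone and without control sample 1 or 4 or high-fat sample 2 or 4. Over all probes it was 1513, against 2435 with the replicate block, 2626 with array weights, 165 with normexp, 895 with normexp without the smeared spots, and 1044 to 2703 with a sample left out. High-fat samples 1, 2 and 4 correlated best with the control sample of the same number (r = 0.24, 0.39 and 0.30). High-fat sample 3 did so with control sample 1 (r = 0.16). The labels give a number and no pairing, so whether the samples were paired cannot be told.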
